A study of Arabidopsis thaliana with 48 samples.

Results

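Seedlings of Arabidopsis thaliana on day 6 after germination were compared with seedlings on day 4, in the accession Col and in the line CCA1OX. The comparison used every array of these lines on either day, 12 from day 6 and 16 from day 4, or 28 of the 48 arrays of the series. Each line was sampled in the light 120 min, in the dark 280 min, in the light 1080 min and in the dark 1240 min into the day, and the resulting 8 groups of line and time entered the fit as a block, so that seedlings were compared only with seedlings of the same line and time of day.

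In the first days after germination an Arabidopsis seedling lives on oil and protein laid down in the seed, greens its cotyledons and extends its hypocotyl. Fatty acids from the oil pass through the glyoxylate cycle, which turns their carbon into sugar until photosynthesis takes over. Anthocyanins, the purple flavonoid pigments, are often made in young seedlings on sucrose, and chlorophyll is made from precursors of the tetrapyrrole pathway.

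All plants grew on MSMO medium with 3% sucrose, in short days until day 4 and then, from dawn of day 4, in cycles of 160 min light and 320 min dark, 3 cycles a day. Col is the unmodified accession, CCA1OX overexpresses the clock transcription factor CCA1, and pif4 pil5 is a double mutant of transcription factors that bind phytochrome. By the labels the hypocotyl was growing at dark 280 min in Col and at dark 280 and 1240 min in CCA1OX, and it was not growing in any other group, pif4 pil5 included. Each sample was a pool of whole seedlings, so fewer cells of a type and less RNA per cell cannot be told apart. The p-values measure the spread between arrays, each of 1 pool. In the main fit that spread also holds differences between time courses, and between array batches within a day. On day 4 each group of line and time had 2 arrays, 1 from each of 2 time courses, while on day 6 the light 120 and dark 1240 groups had only the array of time course 1. The main fit had no term for time course, so in these groups a difference between time courses enters the age change. The lines also had 14 arrays on day 5, and pif4 pil5 had 2 arrays on each of days 4, 5 and 6, all at dark 280 min. In the lines, replicate numbers name the time course.

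Time in the light and dark cycles, which began at dawn of day 4, rose with age in every line, pif4 pil5 included. Age and time in these cycles therefore cannot be told apart, and age change below means the change from day 4 to day 6. No array batch held Col or CCA1OX arrays of both day 4 and day 6. Age and array batch therefore cannot be told apart in these lines except through day 5, which shared batches with either day. The 6 pif4 pil5 arrays were all in 1 batch, and they are given beside the lines as a comparison that shares no array with them. The median log2 value of an array ran from 4.566 to 4.803. RNA quality, taken as the 3' signal minus the 5' signal of the control transcripts (log2), had a median of 1.63 on day 4 and 1.72 on day 6, with the highest value, 2.47, in CCA1OX light 1080 day 6 replicate 2. Genes of the nuclear photosystem list had mean log2 levels of 10.3 to 11.6 on day 4 and 11.1 to 11.7 on day 6, so green tissue was present throughout, and pollen and flower genes were at 1.98 to 2.28. A pair of Col arrays of day 6 went against their labels for light-regulated genes, dark 280 replicate 1 and light 1080 replicate 1. By a score over probe sets that time course 2 showed to be dark-induced (162) or dark-repressed (346), the dark array scored -1.25, where the other dark arrays of its time course on days 4 and 6 scored 0.102 to 2.02, and the light array scored 1.33, where the other light arrays of these days scored -1.5 to -0.29. Both stayed in the fit under the labels they carry, and results are also given without this pair. On day 5 CCA1OX dark 280 replicate 1 also went against its label, at a score of -1.13, and fits that use day 5 are given without it as well.

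Between day 4 and day 6 the transcript of isocitrate lyase and those of the anthocyanin pathway fell several-fold, 6 of 8 genes of chlorophyll synthesis fell by a smaller amount, and the LEA gene M17, the cold-response gene COR15A and the glucosinolate gene BCAT4 rose. With limma and a threshold of 0.05 on the adjusted p, 3598 of 22746 probe sets differed (15.8%), 1887 higher (8.3%) and 1711 lower (7.52%) on day 6. Of these, 152 were at least 2-fold higher and 119 at least 2-fold lower, and 1898 of the 3598 had a single gene name. Without the arrays that stood apart, 3151 were called (13.9%). Centring each array on its median left the total at 3644 but moved the split to 1408 higher, so the share that was higher depends on the scaling. With array batch as a random block the count was 973, and with day 5 added and array batch as a fixed block it was 5 (0.022%), with 2095 under the threshold before adjustment. Without the 3 arrays that went against their labels that last count was 1, with 1897 before adjustment, a fit chosen after seeing the data.

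All 271 probe sets called at 2-fold or more kept their sign with batch as a fixed block. Their changes there had a median of 85.8% of the size without the block, while the standard errors were larger by a median factor of 2.19. On day 5 these probe sets lay between the other days in 265 cases, with a median of 59.8% of the day 6 change already present (quartiles 48.9% and 72.8%). The probe sets were chosen on days 4 and 6, so only the place of day 5 within that range is a separate measurement. Of the day 5 arrays, 8 were in batch 2 and 2 in batch 5, which held day 6. The other 4 were in batch 4, which held day 4. The place of day 5 between the days therefore cannot tell age from array batch. Without the 3 arrays that went against their labels, 259 of these probe sets lay between the other days with a median of 61.3%. All 271 then kept their sign with batch as a fixed block, at a median of 81.6% of the size.

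ICL encodes isocitrate lyase, an enzyme found in the glyoxylate cycle and not in the citric acid cycle. It had log2 values of 8.43 to 12.26 on day 4 (median 11.07) and 5.78 to 9.09 on day 6 (median 8.14), with a median of 8.38 on day 5. The days overlapped between 8.43 and 9.09, and the day 5 median was already close to that of day 6. Within day 4 the values at light 1080 and dark 1240 min were already lower than those at light 120 and dark 280 min. Col replicate 1 went from 11.06 and 11.3 to 8.43 and 8.61 and CCA1OX replicate 1 from 11.09 and 11.21 to 9.075 and 9.07. In replicate 2 Col went from 12.26 and 12.09 to 11.36 and 10.62 and CCA1OX from 11.49 and 11.08 to 9.231 and 9.43. ICL fell by 2.46 ± 0.359 on the log2 scale, or 5.49-fold (SE, limma adjusted p = 8.86e-05), and it was lower on day 6 in all 8 groups. In pif4 pil5 the values were 11.41 and 11.76 on day 4, 10.47 and 10.02 on day 5 and 8.47 and 9.09 on day 6, and ICL fell by 2.81 (adjusted p = 4.62e-04). The other members of the list of fatty acid breakdown and the glyoxylate cycle were SDP1, the lipase that opens seed oil stores, at a change of -0.08, and AIM1, a β-oxidation enzyme, at -0.04, and neither was called.

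**Figure D1:**
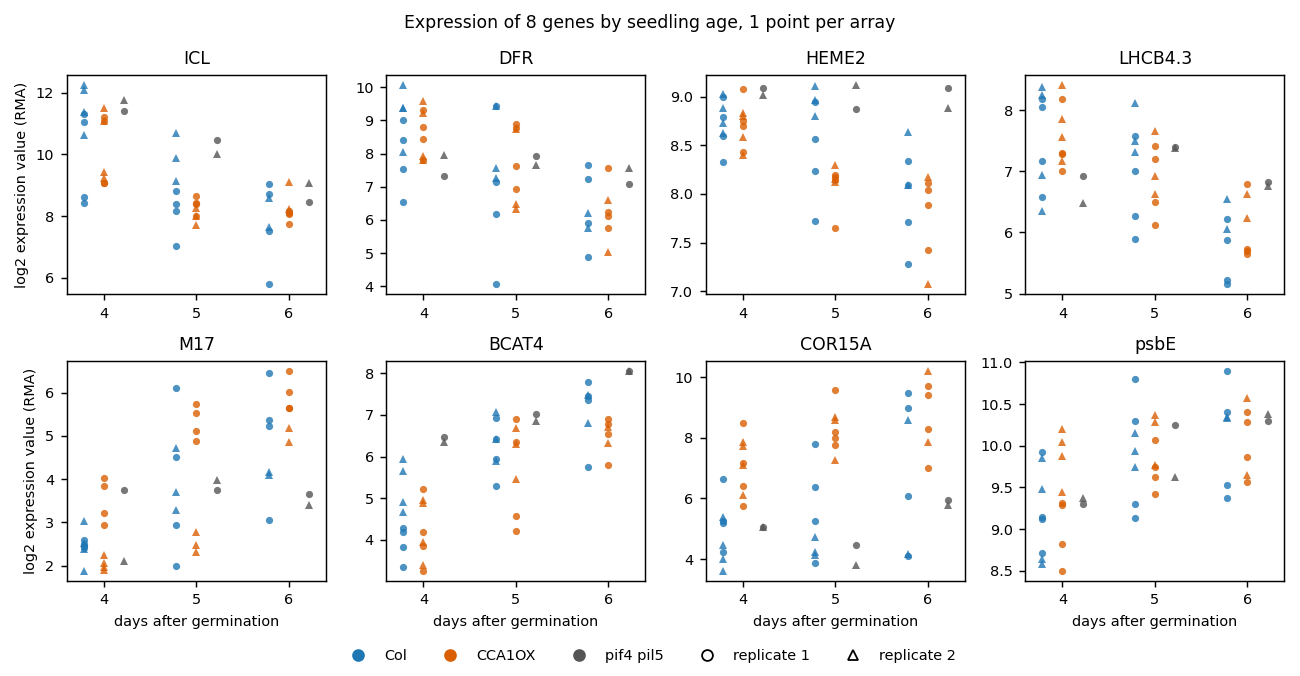
Log2 expression values (vertical axis) of 8 genes on days 4, 5 and 6 after germination (horizontal axis), with 1 point per array, coloured by line and shaped by replicate number. ICL, DFR, HEME2 and LHCB4.3 were lower and M17, BCAT4, COR15A and psbE higher on day 6 in Col and CCA1OX. HEME2 and LHCB4.3 stayed near their day 4 values in pif4 pil5, which was sampled only at dark 280 min. At that time HEME2 in Col replicate 2 gave 8.63 on both days, while in CCA1OX it was lower on day 6.

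Genes of seed reserves and seed maturation moved both ways. OLEO3, an oleosin of the oil body surface, had values of 4.22 to 7.10 on day 4 and 3.73 to 5.97 on day 6, and fell by 1.37 ± 0.187 (adjusted p = 4.65e-05). In pif4 pil5 its change was of similar size, -1.66, but missed the threshold (adjusted p = 0.0585). LEA4-5, a late embryogenesis abundant protein of the kind that protects drying cells, fell by 1.2 ± 0.204 (adjusted p = 3.88e-04) and also fell in pif4 pil5, by 0.93 (adjusted p = 4.73e-03). In the lines it was the only one of 7 members of the LEA list to be called, beside 15.8% of all probe sets. The list's median was -0.01. M17, another LEA gene, was not matched by that list's name patterns and showed the largest rise of all named genes. Its values were 1.88 to 4.02 on day 4 (median 2.47) and 3.05 to 6.51 on day 6 (median 5.30), and it rose by 2.52 ± 0.313, or 5.74-fold (adjusted p = 1.62e-05). The groups overlapped between 3.05 and 4.02, and the pif4 pil5 values were 3.76 and 2.1 on day 4 and 3.66 and 3.40 on day 6, a change of 0.61 that was not called. On a list of 16 seed protein, oil body and LEA genes written by locus after values had been seen, 4 were higher and 3 lower, with a median of 0.16 against -0.003 over all probe sets, so no common direction was measured.

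Genes of the anthocyanin pathway fell together. DFR, dihydroflavonol reductase, which commits flavonoids to anthocyanin, had values of 6.55 to 10.08 on day 4 (median 8.62) and 4.88 to 7.65 on day 6 (median 6.17). It fell by 2.29 ± 0.315, or 4.88-fold (adjusted p = 5.13e-05), in Col by 2.20 and in CCA1OX by 2.37. UF3GT, which adds a sugar to anthocyanin, fell by 2.27 ± 0.384 (adjusted p = 3.76e-04), from a day 4 median of 7.62 to 4.82. AT5MAT, which adds malonate, fell by 2.01 ± 0.344 (adjusted p = 4.20e-04), from 5.87 to 3.43. The locus AT4G14090 fell by 2.51 ± 0.444, or 5.70-fold (adjusted p = 5.44e-04). UGT78D2, a flavonoid 3-O-glucosyltransferase, fell by 1.02 and CHIL, a chalcone isomerase-like protein, by 1.04, although the call of UGT78D2 was lost without any of 19 single arrays and that of CHIL without any of 5. All 6 genes of this list, written after values had been seen, were called lower, with a median of -2.14. DFR, UF3GT, AT5MAT and AT4G14090 were already among the 12 genes that fell most, so that median follows in part from the choice. On the broader flavonoid list, 4 of 7 were lower and 0 higher, with a median of -1.02. BAN, which diverts the pathway to tannins in the seed coat, stood at a median of 2.29 on day 4 and 2.21 on day 6, near the lowest values on the arrays.

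In pif4 pil5 the anthocyanin genes differed among themselves. UF3GT fell by 1.43 (adjusted p = 0.0120), AT5MAT by 1.62 (adjusted p = 0.0214) and AT4G14090 by 1.34 (adjusted p = 0.0212). DFR was not called, at a change of -0.32 (adjusted p = 0.462), with 7.32 and 7.97 on day 4 and 7.07 and 7.57 on day 6. At the same time of day on day 4, DFR gave 6.55 and 8.06 in Col and 8.45 and 7.91 in CCA1OX, so the values of pif4 pil5 lay within the range of the lines. Whether the age changes of pif4 pil5 and the lines differ was not tested for any gene.

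Most genes of chlorophyll synthesis fell. Of 8 genes on the list 6 were lower and 0 higher, with a median of -0.66. HEME2 and HEME1, which encode uroporphyrinogen decarboxylases, fell by 0.80 ± 0.111 (adjusted p = 5.17e-05) and 0.74 ± 0.117 (adjusted p = 1.92e-04). HEME2 ranged from 8.32 to 9.07 on day 4 and from 7.07 to 8.63 on day 6, so a few day 6 arrays reached day 4 levels. PORB, which makes chlorophyllide in the light, fell by 0.71, CHLI2, a subunit of magnesium chelatase, by 0.68, GSA1, an aminotransferase early in the pathway, by 0.64 and HEMB1, the next enzyme along, by 0.49. CHLM, a methyltransferase after magnesium insertion, and HEMA2, an isoform at the entry to the pathway, were not called, at -0.11 and 0.02. In pif4 pil5, where limma called 11.3% of all probe sets, 0 of the 8 genes were called (2 before adjustment), with a median of 0.10. HEME2 there gave 9.08 and 9.01 on day 4 and 9.09 and 8.88 on day 6. At the same time of day HEME2 in Col gave 9 and 8.63 on day 4 and 7.28 and 8.63 on day 6. The 7.28 is the dark array that stood apart. In CCA1OX it gave 9.07 and 8.83 on day 4 and 8.045 and 8.17 on day 6. Whether the change differs between pif4 pil5 and the lines was not tested.

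The light-harvesting genes showed 1 isoform that departed from the rest. LHCB4.3, a minor antenna protein of photosystem II, had values of 6.35 to 8.42 on day 4 and 5.15 to 6.79 on day 6, and fell by 1.58 ± 0.215, or 2.98-fold (adjusted p = 4.65e-05). Its relatives LHCB4.1 and LHCB4.2 were not called, at 0.09 and 0.21. LHCB4.1 had values of 10.85 to 12.45 on day 4 (median 12.14) and 11.84 to 12.23 on day 6 (median 12.08), and LHCB4.2 had 10.01 to 12.37 (median 11.97) and 11.75 to 12.14 (median 11.96). In pif4 pil5 LHCB4.3 gave 6.92 and 6.49 on day 4 and 6.82 and 6.76 on day 6, a change of 0.09 that was not called. At the same time of day LHCB4.3 in Col gave 6.58 and 6.345 on day 4 and 6.22 and 6.05 on day 6. The 6.22 is the dark array that stood apart. In CCA1OX it gave 7.30 and 7.17 on day 4 and 5.72 and 6.24 on day 6. In the lines limma called 0 of 5 nuclear photosystem genes and 0 of 4 Calvin cycle and photorespiration genes, and for both lists the count was also 0 before adjustment. Of the latter, PRK and SBPASE of the Calvin cycle and HPR of photorespiration were higher in pif4 pil5 on day 6, by 1.14, 0.79 and 1.30.

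Among the genes encoded in the chloroplast, 9 of 69 were higher and 2 lower on day 6, with a median of 0.18. Of all probe sets 8.3% were higher and 7.52% lower. With time courses 1 and 2 fitted apart, the list's medians were 0.064 and 0.062, both under the 0.18 of the common fit. The common fit had no term for time course, so differences between time courses enter its changes. For petL in Col at light 120 min, day 4 gave 9.512 in replicate 1 and 5.62 in replicate 2. Day 6 had only replicate 1 there, at 9.546. The counts were 7 higher and 0 lower without the arrays that stood apart, where rbcL and rps16 missed the threshold (adjusted p = 0.103 and 0.111), and 6 higher and 2 lower after centring each array on its median. In pif4 pil5 19 were higher and 1 lower, with a median of 0.62 (5.78% of all probe sets were higher there). The neighbouring genes psbE, psbF, psbL and psbJ, which encode cytochrome b559 and small subunits of photosystem II and are transcribed together, rose by 0.83, 0.81, 0.69 and 0.76. For psbE the values were 8.50 to 10.2 on day 4 and 9.38 to 10.90 on day 6, and the change was 0.83 ± 0.180 (adjusted p = 3.03e-03). All 4 also rose in pif4 pil5, by 1.00, 0.87, 0.86 and 0.74. rbcL, the large subunit of Rubisco, fell by 0.65 in the lines, a call lost without any of 16 single arrays, and by 1.76 in pif4 pil5 (adjusted p = 1.38e-03), where it went from 10.39 and 10.45 to 8.63 and 8.69. The genes psbF, psbL, psbJ and rbcL were named after their values were seen.

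**Figure D2:**
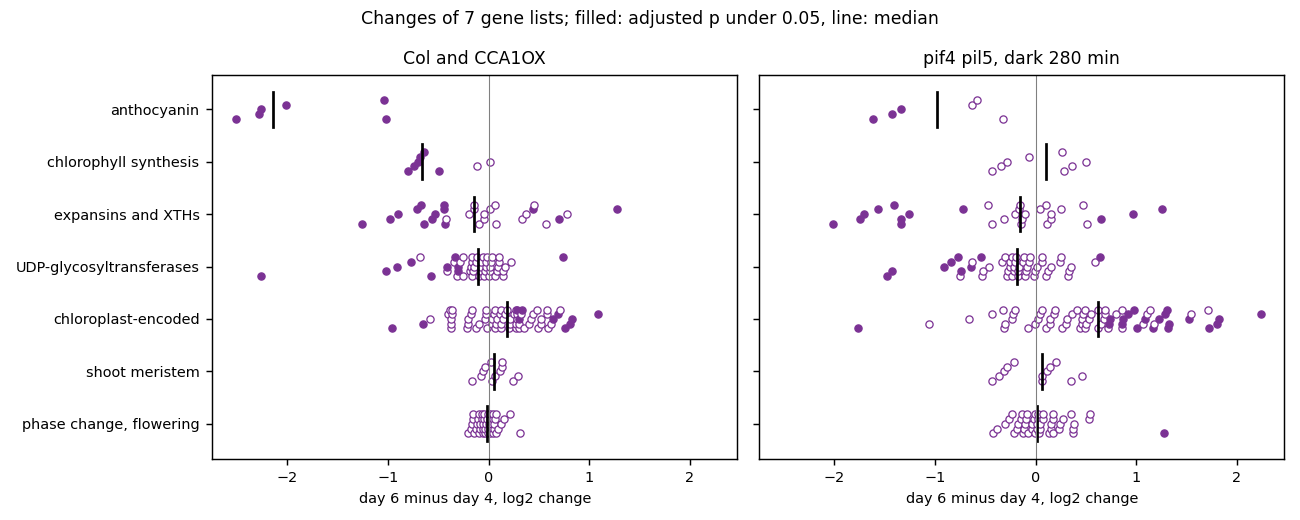
Log2 change from day 4 to day 6 (horizontal axis) of the members of 7 gene lists in Col and CCA1OX (left) and in pif4 pil5 at dark 280 min (right). Each point is a probe set, filled where the adjusted p was under 0.05, and the black line is the list's median. The left panel spans 4 times of day. Anthocyanin genes lay to the left in both panels, with medians of -2.14 and -0.98. That list was written after values had been seen and holds DFR, UF3GT, AT5MAT and AT4G14090, which are among the 12 genes that fell most. The broader flavonoid list, not drawn, had medians of -1.02 and -0.32. The median for chlorophyll synthesis was -0.66 in the lines and 0.10 in pif4 pil5.

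Cell wall genes that loosen or rebuild xyloglucan fell more often than they rose. Of 29 expansin and xyloglucan endotransglucosylase (XTH) genes, 11 were lower and 3 higher, with a median of -0.14. Over all probe sets 7.52% were lower and 8.3% higher. XTH33 fell by 1.26 ± 0.175 (adjusted p = 5.22e-05), from a median of 5.21 to 4.04, and by 1.70 in pif4 pil5. XTH16 fell by 0.98 and XTH26 by 0.90. EXPB3, a β-expansin, went the other way, rising by 1.28 ± 0.292 (adjusted p = 4.38e-03), from a median of 7.84 to 9.31, and EXPA15 rose by 0.70. EXPA7 and EXPA18, expansins of root hairs, fell by 0.71 and 0.64, and by 1.26 and 1.57 in pif4 pil5. They were the 2 measured members of the root hair list, so the list's 2 of 2 rests on genes that are also on the expansin list. In the lines both overlapped between days, with EXPA7 at 4.86 to 6.35 on day 4 and 3.94 to 6.72 on day 6. ATPMEPCRB, a pectin methylesterase, fell by 1.21 ± 0.124 (adjusted p = 1.67e-06).

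BCAT4, the aminotransferase that starts the chain elongation of methionine for aliphatic glucosinolates, rose by 2.35 ± 0.236, or 5.10-fold (adjusted p = 1.38e-06). Its values were 3.25 to 5.94 on day 4 (median 4.23), a median of 6.32 on day 5, and 5.74 to 7.79 on day 6 (median 6.80). The groups met only between 5.74 and 5.94. In pif4 pil5 it rose by 1.66 (adjusted p = 4.91e-04), from 6.46 and 6.34 to 8.05 and 8.06. In the lines it was the only one of 6 glucosinolate genes called, beside 15.8% of all probe sets. The others were transporters and later enzymes. MYC3 and MYC4, transcription factors of jasmonate signalling that act on glucosinolate genes, rose by 0.45 (adjusted p = 2.61e-03) and 0.70 (adjusted p = 8.82e-03), and by 0.63 and 0.92 in pif4 pil5. Of 10 jasmonate genes, 2 were higher and 1 lower, beside 8.3% and 7.52% of all probe sets.

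COR15A, a chloroplast protein made in the cold, rose by 1.91 ± 0.499, or 3.76-fold (adjusted p = 0.0112). It had a wide spread, 3.61 to 8.49 on day 4 and 4.1 to 10.21 on day 6. With a change fitted for each line, it missed the limma threshold in Col (2.19, adjusted p = 0.0782) and in CCA1OX (1.64, adjusted p = 0.185). It rose by 0.81 in pif4 pil5. By group means it was higher on day 6 in all 8 groups, but Col at dark 280 min rests on the array that stood apart. That group gave 4.237 and 4.461 on day 4, and 9.482 in that array and 4.16 in replicate 2 on day 6. In Col at light 1080 min, the other array that stood apart gave 4.102, beside 8.603 in replicate 2 and 5.264 and 4.016 on day 4. Of 5 abscisic acid and cold response genes, 1 was higher and 1 lower, beside 8.3% and 7.52% of all probe sets. Their median was 0.62. The lower one, LTI30, at -0.54 (adjusted p = 0.0424), missed the threshold without the arrays that stood apart and without any of 17 single arrays. COR15B and COR27 were not called, at 1.21 and 0.62, nor was COR47, at -0.31. BGLU33, a β-glucosidase, rose by 1.99 ± 0.196 (adjusted p = 1.38e-06), from a median of 2.40 to 4.48, and GSTF4, a glutathione transferase, by 0.92 ± 0.131 (adjusted p = 6.62e-05). APL3, a large subunit of the starch-synthesis enzyme ADP-glucose pyrophosphorylase, fell by 1.5 ± 0.366 (adjusted p = 7.04e-03) and by 1.69 in pif4 pil5. Among sugar genes, the transporters SWEET3 and SWEET17 moved apart, at -0.89 and 0.84. Of 17 sugar genes 2 were lower and 2 higher, beside 7.52% and 8.3% of all probe sets. Of 50 UDP-glycosyltransferases 9 were lower and 1 higher, against the same shares, with a median of -0.11. IAA20 and IAA34 of the Aux/IAA repressor family fell by 0.94 and 0.60. They were the only 2 called of 15 auxin response genes, beside 15.8% of all probe sets. Both were low on day 6, IAA20 at 2.49 to 3.22 and IAA34 at 2.36 to 3.11. On day 4 IAA20 was at 4.47 to 4.96 at dark 280 min and at 2.75 to 3.72 at the other times. VTC4, an enzyme of ascorbate synthesis, fell by 0.74, and NOL, a chlorophyll b reductase, by 0.67.

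Several of the largest changes were in loci without a descriptive name in the reference. AT2G47780 fell most, by 2.76 ± 0.306, or 6.78-fold (adjusted p = 4.77e-06), from 6.32 to 10.15 on day 4 (median 8.88) to 4.13 to 7.60 on day 6 (median 5.89), and by 3.56 in pif4 pil5. Within day 4 it went from 9.13 and 9.63 at 120 and 280 min to 6.78 and 6.32 at 1080 and 1240 min in Col replicate 1. AT2G47780, AT1G48660 and AT1G72070 were lower at these late times of day 4 in both replicates of both lines. AT5G44440 fell by 2.29 from a median of 10.04 and by 3.58 in pif4 pil5, and AT1G48660 fell by 2.35. AT1G72070, AT2G25150, AT1G73120 and AT2G36885 fell by 1.66 to 2.1. Among those that rose were AT3G58550 (2.40), AT2G28490 (2.20), AT5G37990 (2.19), AT1G64370 (2.14), AT1G23130 (2.08), AT4G14060 (2.08), AT3G21380 (2.03) and AT4G22490 (1.91). AT2G28490 was the one of these 8 that was not called in pif4 pil5, at 0.06.

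**Figure D3:**
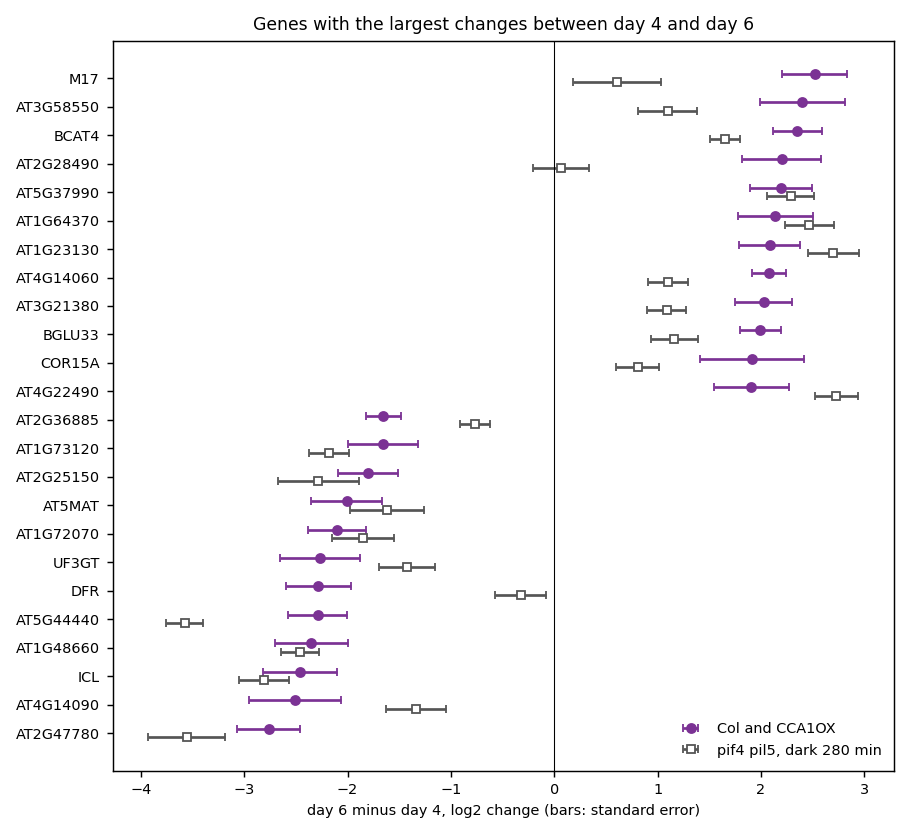
Change from day 4 to day 6 on the log2 scale (horizontal axis) for the 12 genes that rose most and the 12 that fell most in Col and CCA1OX (filled circles), with the same genes in pif4 pil5 (open squares) and standard errors as bars. The genes were chosen on the filled values, which ran from -2.76 for AT2G47780 to 2.52 for M17, and all 24 squares lay on the same side of 0, DFR, M17 and AT2G28490 without passing the test.

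For 24 probe sets (0.106%) every day 6 array lay beyond every day 4 array, 17 above (0.0747%) and 7 below (0.0308%), although line and time of day varied within each day. Named among them, after their values were seen, were AT4G14060 at 1.62 to 2.22 on day 4 and 2.73 to 5.04 on day 6, and AT2G36885 at 7.22 to 8.62 and 5.59 to 7.17. TBL36, a member of the family that acetylates cell wall polysaccharides, ran from 4.36 to 6.03 on day 4 and from 6.12 to 7.14 on day 6, and rose by 1.34 ± 0.133 (adjusted p = 1.38e-06). It rose by 1.43 in pif4 pil5. FMO, a flavin monooxygenase, ran from 5.68 to 6.93 and from 6.98 to 7.91, with a rise of 0.91, and was not called in pif4 pil5, at 0.26. AT4G00780 rose by 1.78 and AT5G35740 fell by 1.25.

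In pif4 pil5, with 2 arrays a day in a single batch, 2566 probe sets differed between day 6 and day 4 (11.3%), 1314 higher (5.78%) and 1252 lower (5.5%). The count was 438 without day 6 replicate 1, 813 without day 6 replicate 2 and 1579 without day 4 replicate 2. Of the 3598 called in the lines, 761 were also called there, or 21.2% of those in the lines and 29.7% of those in pif4 pil5, and 700 of the 761 went the same way. The sign was shared by 70.2% of the probe sets called in the lines and by 58.8% of all probe sets. Of the 271 at 2-fold or more, 246 had the same sign in pif4 pil5 and 174 were called in it. Those that were higher in the lines, by a median of 1.26, had a median of 0.98 in pif4 pil5, and those lower, by a median of -1.21, had one of -1.34. Across all probe sets the correlation of the changes was 0.416, a description over genes that are not independent.

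**Figure D4:**
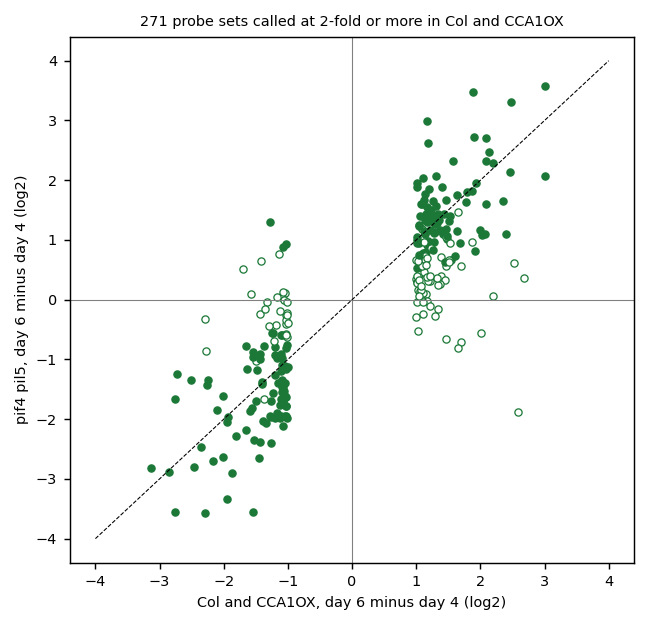
Change from day 4 to day 6 in Col and CCA1OX (horizontal axis, log2) and in pif4 pil5 (vertical axis, log2) for the 271 probe sets called at 2-fold or more in the lines, filled where also called in pif4 pil5. The dashed line marks equal change, and 246 of the 271 points lay in the quadrants of equal sign.

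The largest fall of a named gene in pif4 pil5 was that of GI, followed by those of AT5G44440 and AT2G47780, which are also among the 12 genes that fell most in the lines. GI, an evening gene of the circadian clock, fell by 4.12 ± 0.220 (adjusted p = 8.77e-05), from 8.05 and 7.50 on day 4 to 4.74 and 4.44 on day 5 and 3.46 and 3.85 on day 6. COR27, a cold-regulated gene that is also under the clock, fell by 2.55 (adjusted p = 1.70e-03), from 6.00 and 4.86 to 2.75 and 3.02. ATSPS4F, a sucrose phosphate synthase, rose by 3.05, and AT2G33850 and AT1G65490 by 3.48 and 3.21. Only AT2G33850 of these was called in the lines, at 1.88. In Col at the same time of day GI gave 7.09 and 6.51 on day 4 and 5.05 and 4.27 on day 5. On day 6 it gave 3.85 in replicate 2 and 8.24 in replicate 1, the latter being the dark array that stood apart. In CCA1OX GI at dark 280 min was 7.11 and 7.30 on day 4, 7.57 and 6.95 on day 5 and 6.56 and 6.53 on day 6, where the 7.57 is replicate 1, the day 5 array that went against its label. At dark 1240 min Col stayed at 3.14 to 4.00 on all 3 days. Averaged over times of day and lines, GI was not called, at -0.13.

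**Figure D5:**
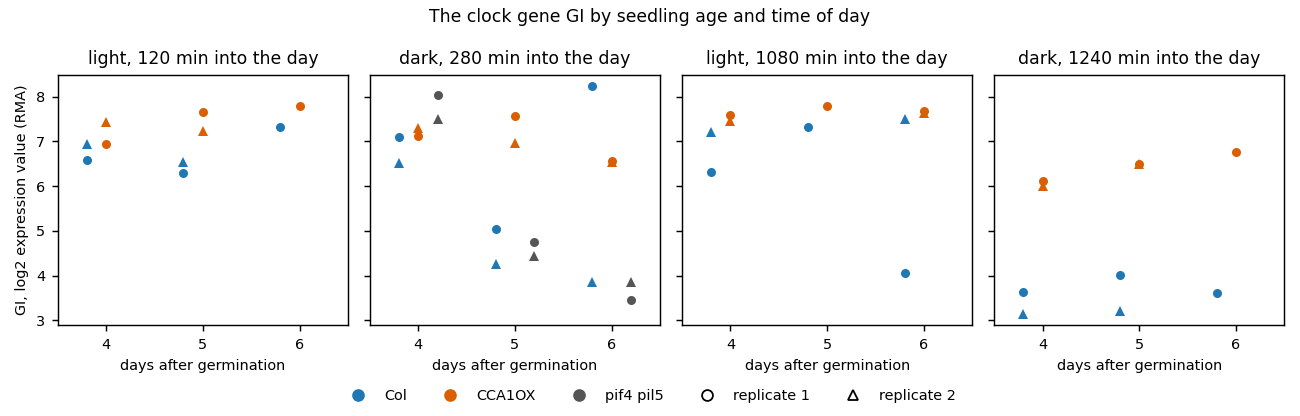
Log2 expression of GI (vertical axis) on days 4, 5 and 6 (horizontal axis) at the 4 times of day, with 1 point per array. At dark 280 min the values of pif4 pil5 fell from 8.05 and 7.50 to 3.46 and 3.85, those of Col spread from 3.85 to 8.24 on day 6, and those of CCA1OX lay between 6.53 and 7.57. The highest values of Col on day 6 and of CCA1OX on day 5 come from arrays that went against their labels.

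With an age change fitted for each line, 1224 probe sets were called in Col (5.38%) and 1528 in CCA1OX (6.72%). With the replicate block for time course the counts were 1566 and 2477, and with array batch as a random block 454 and 485. The change of each line rests on its own arrays, but both were fitted together with a common spread. The lines also shared array batches on each day, so their calls are not independent. In all, 470 were called in both, 38.4% of those in Col and 30.8% of those in CCA1OX, and all 470 went the same way. Of those called in Col, 97.3% had the same sign in CCA1OX, against 65.7% of all probe sets. The Col count was 517 without the arrays that stood apart and 548 without light 120 day 6 replicate 1, the single array of that group. The CCA1OX count was 554 without light 120 day 6 replicate 1. The difference between the lines in their age change was called for 1 probe set (0.0044%), with 1445 under the threshold before adjustment. It has no gene name, and its change was 1.09 in Col, from a mean of 3.47 to 4.60, and 0.03 in CCA1OX, from 2.61 to 2.65 (difference -1.05 ± 0.141, adjusted p = 4.72e-03).

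The 2 time courses, which share no arrays, were fitted apart. Time course 1 gave 2017 calls (8.87%) and time course 2, with 4 arrays on day 6, gave 38 (0.167%), of which 32 were among the 2017 and went the same way. The sign was shared by 88.2% of the probe sets called in time course 1 and by 63.4% of all. ICL changed by -2.09 and -2.56, DFR by -1.82 and -2.92, HEME2 by -0.85 and -0.73, M17 by 2.50 and 2.34, and BCAT4 by 2.78 and 1.90 in time courses 1 and 2. Within the array batch that held days 5 and 6 of time course 1, limma called 0 probe sets between these days, with 1966 under the threshold before adjustment, and also 0 (1381 before adjustment) without the 3 arrays that went against their labels. The changes there, which rest in part on day 6 arrays of the main comparison, were -0.33 for ICL, -0.95 for DFR, -0.34 for HEME2, 0.89 for M17 and 0.97 for BCAT4.

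The age change was also compared between dark and light. It differed for 17 probe sets (0.0747%), 3 with a higher and 14 with a lower value in the dark, and 11 of them had a gene name. bZIP44, a transcription factor of the S1 group, fell by 0.91 ± 0.105 in the dark and changed by -0.01 in the light (difference -0.90 ± 0.149, adjusted p = 0.0318). Its mean went from 6.15 to 5.31 in the dark and from 5.99 to 5.93 in the light. The count was 41 without the arrays that stood apart and fell to 0 without any of 10 single arrays, Col light 120 day 6 replicate 1 among them.

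Among enzyme families, 3 of 26 cytochrome P450 genes were higher and 4 lower. Of 14 glutathione transferases 2 were higher and 1 lower, and of 7 class III peroxidases 2 were higher. Over all probe sets 8.3% were higher and 7.52% lower, so counts as small as these are not read as results about the families. Several lists held no member called by limma. These were shoot meristem and leaf development (0 of 12, with 2 before adjustment, median 0.05), juvenile to adult phase and flowering (0 of 46, with 4 before adjustment, median -0.02), iron, zinc and copper (0 of 9, with 3 before adjustment, median 0.18), WRKY factors (0 of 6, with 1 before adjustment), cell cycle (0 of 5) and light signalling (0 of 4), the last pair also with 0 before adjustment. Over all probe sets the median change was -0.003.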

How the data were processed

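Per the submitters' processing notes, the authors made the deposited log2 values by RMA with the affy package (version not given in the sources used here). RMA normalises arrays to 1 distribution by quantiles, so a shift common to most genes would be removed. Of the probe sets, 64 controls were left out and 22746 tested. The platform table and RefSeq (TAIR10.1) gave 13513 of them 1 gene (13436 matched to RefSeq), 503 several and 8730 none, and PIF4, PIL5 and CCA1 were not checked at their own probe sets. The fit used limma 3.58.1 (R 4.3.3) on 28 arrays, with a mean per group of line and time, a common change from day 4 to day 6, and 19 residual degrees of freedom (7 within array batch 2, 3 in pif4 pil5). Tests were two-sided, with Benjamini-Hochberg adjustment over 22746 probe sets.

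Array batches (5) were taken from the array names in the labels. The code was tested on simulated data. Arrays give no counts, so their number limits the precision. The comparison, lists and alternatives were chosen with earlier results of these data known. The rule names the 12 highest and 12 lowest called genes, up to 3 called members a list and 3 each way for the other comparisons. Lists were built by name patterns (51, of which 46 had a member), false matches were removed after reading names, and 2 lists by locus, further genes and 2 alternatives were added after values were seen. Alternatives were median centring, repeated quantile normalisation, a filter on dim probe sets, a trended and robust prior, array weights, RNA quality, blocks for time course and array batch, each time course alone, and each array left out. Residuals of arrays of the same number correlated by a median of 0.189 within a day and 0.178 across days, and by -0.181 between numbers, and the design text describes the numbers as independent time courses, so the numbers pair the samples.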

Additional observations from a re-analysis of the deposited data

Results flagged for a closer look

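The age change differed between dark and light by the test of the difference itself for 17 probe sets, of which the 11 with a gene name are given here. IQD24 changed by 1.16 in the dark and -0.34 in the light, a difference of 1.49 (adjusted p = 0.0318), and EXGT-A3 by 0.76 and -0.09, a difference of 0.854 (adjusted p = 0.0407). UGT71C1 differed by -1.02 (adjusted p = 0.0494), AT1G19530 by -1.4 (adjusted p = 0.0494) and AT5G02580 by -1.5 (adjusted p = 0.0318). For bZIP44 the difference was -0.896, for AT1G13750 -1.02, for AT1G67330 -0.871, for AT5G11230 -0.852, for AT5G42860 -0.753 and for UGT71C2 -0.724. Each of these calls was lost without any of 10 to 25 single arrays. Without the arrays that stood apart, AT5G11230, UGT71C1 and AT5G42860 missed the threshold (limma adjusted p = 0.05152, 0.05902 and 0.06201).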

How the results depend on the processing

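For both lines together the count of 3598 was 973 with array batch as a random block, 5 with days 4, 5 and 6 and array batch as a fixed block, 1 when 3 arrays that went against their labels were left out of that fit and 454 with all 48 arrays and that block (both chosen after seeing the data), 2017 in time course 1 alone and 38 in time course 2 alone. It ranged from 2779 to 3725 with single arrays left out. With the replicate block for time course it was 4075 for both lines, 1566 for Col, 2477 for CCA1OX and 2059 for pif4 pil5. Array batch as a random block gave 454 for Col and 485 for CCA1OX, and Col gave 517 without the arrays that stood apart. With single arrays left out, Col ranged from 548 to 1593 and CCA1OX from 554 to 1803. Col also fell by more than 1.5 times without dark 280 day 4 replicate 2 (804) or light 1080 day 4 replicate 2 (653), and CCA1OX without dark 280 day 4 replicate 1 (970), dark 1240 day 6 replicate 1 (785) or dark 280 day 6 replicate 2 (999). The pif4 pil5 count ranged from 438 to 2786, with 438 without day 6 replicate 1, 813 without day 6 replicate 2 and 1579 without day 4 replicate 2, where an age is left with 1 array that is assumed to vary like the rest. The difference between the lines was 1 probe set with each array left out and 0 without dim probe sets (645 before adjustment). That between dark and light was 6 after median centring, 10 with a trended and robust prior, 33 with the replicate block and 41 without the arrays that stood apart, and ranged from 0 to 23 over single arrays, moving by more than 1.5 times without any of 22 of the 28. Days 6 and 5 within array batch 2 gave 2 with the trended and robust prior and 0 or 1 with single arrays left out. LTI30 turned from -0.54 to 0.26 with days 4, 5 and 6 and batch as a fixed block (0.48 without the 3 arrays) and to 0.45 with all 48 arrays, XTH20 from -0.53 to 0.14 with the former, and GID1A from 0.21 to -0.033 in time course 2 alone. Of the 121 gene results, 90 missed the threshold with the day 5 batch block and 36 with the random block. The causes were not tested.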
